A study of Astyanax mexicanus with 22 samples.

Results

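Receptors for the pituitary gonadotropins and for progestins that act at the cell membrane were examined in ovaries of the Mexican tetra, Astyanax mexicanus. The genes were chosen by symbol alone: lhcgr, fshr, every pgrmc gene and every gene of paqr5 to paqr8, each with at least 1 count in 5 or more libraries. Of 27420 gene rows, 10 carried such a symbol and 9 met the count rule. These were lhcgr (ENSAMXG00000034302), fshr (ENSAMXG00000011613), pgrmc1 (ENSAMXG00000043642), pgrmc2 (ENSAMXG00000034920), paqr5a (ENSAMXG00000034830), paqr5b (ENSAMXG00000040389), PAQR6 (ENSAMXG00000042779), paqr7a (ENSAMXG00000026320) and paqr7b (ENSAMXG00000029577). The gene just outside the rule was paqr8, with 4 counts in 4 libraries, and the gene just inside it was paqr7b, with 18 counts in 8 libraries. A filter on low counts left 7 of the 9 for testing among 15607 genes. The exceptions were paqr5b and paqr7b, which are given as counts.

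Females of the eyed surface form and of the blind cave form from Pachón, all labelled WT, were either left untreated (control) or starved, and bulk RNA was sequenced from the ovary of the right side. Batches labelled old and new were sampled, and the fish were about 500 or 1200 days old, with neither age tied to a batch in the labels. Each form had 4 old and 2 new control libraries. Starved libraries numbered 2 (old) and 2 (new) for surface fish and 4 (old) and 2 (new) for Pachón fish. The labels give no length of starvation, and nothing states that replicates were separate fish, so p-values measure the spread between these samples.

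The pituitary hormones LH and FSH act on the ovary through G protein-coupled receptors encoded by lhcgr and fshr, which raise cyclic AMP in follicle cells. In fish, FSH receptor signalling is tied mainly to follicle growth and LH receptor signalling to final maturation and ovulation, when follicle cells make a progestin that releases the oocyte from meiotic arrest. That progestin acts at the oocyte surface through membrane progestin receptors of the PAQR family, among which paqr7 and paqr8 encode the alpha and beta receptors, paqr5 the gamma receptor and paqr6 the delta receptor. The pgrmc genes encode small haem-binding membrane proteins of the cytochrome b5 type, which are also linked to progesterone signalling.

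Libraries held 4860620 to 7513790 counts in genes, so that 1 count was worth 0.130 to 0.215 CPM (counts per 1000000 gene counts, scaled by TMM factors). Replicates differed by more than counting error in each of 23 pairs (chi-square divided by its degrees of freedom, 3.93 to 39.4). Replicate 2 of the new starved surface fish stood apart from the other libraries on the third principal component (-92.0, next -20.3). Receptor results whose call changed without it are given with both values. Calls of single genes other than the receptors were not examined without it. Ovarian markers were present in every group, with oocyte markers summing to 3113 to 6826 CPM over 9 genes, while the gonadotrope genes of the pituitary, 4 in all, summed to at most 0.983 CPM. Levels are compared between libraries and not between genes, since gene lengths were not used here. A change is the log2 fold change from edgeR ± SE with the batches weighted equally, and a gene is called at an adjusted p under 0.05.

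The LH receptor gene lhcgr was lower in the starved surface ovaries than in their controls. Control libraries of the old batch held 2.62, 1.22, 19.3 and 7.15 CPM and those of the new batch 8.12 and 14.7 CPM. Starved libraries held 0.144 and 0.474 CPM in the old batch and 0.644 and 1.29 CPM in the new batch, which were 1, 3, 4 and 6 counts. The controls thus spread widely among themselves, and the highest starved library lay just above the lowest control, replicate 2 of the old batch, while the other starved libraries lay below all controls. The group levels were 8.85 ± 6.98 CPM (SD, n = 6) in controls and 0.637 ± 0.481 CPM (SD, n = 4) in starved fish. The fitted change was -4.06 ± 0.72 (95% interval -5.58 to -2.54, edgeR adjusted p = 0.00344). Summed over libraries, 14 counts in starved fish stood against 305 in controls, a level 14.8-fold lower (95% interval 8.70 to 27.4, counting error only).

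The gene was the 1 of 7 tested receptors called in this comparison, beside 7.79% of all genes tested called in either direction and 5.37% called lower. It was called in all 22 fits that left out 1 library, with changes of -4.55 to -3.54 and a highest edgeR adjusted p of 0.0289. The call was lost when the model held surface libraries only (-4.06, edgeR adjusted p = 0.0785) and under limma with sample quality weights (-3.55, limma adjusted p = 0.267). In those fits no gene at all was called for starvation in surface fish. Within batches the change was -4.54 ± 1.06 in the old batch (edgeR adjusted p = 0.0797), where 0.147% of genes were called and where both starved libraries lay below all 4 controls, as for 14.4% of genes. In the new batch it was -3.58 ± 0.98 (edgeR adjusted p = 0.0464), and 4.18% of genes were called there.

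In Pachón fish the LH receptor gene was lower in starved libraries by a smaller amount that did not pass the test. Controls held 10.6, 7.49, 17.3 and 13.2 CPM in the old batch and 7.52 and 18.4 CPM in the new batch. Starved libraries held 4.79, 4.80, 9.77 and 5.88 CPM in the old batch and 4.97 and 4.03 CPM in the new batch. Of the 6 starved libraries, 5 lay below all controls and 1, replicate 3 of the old batch, lay among the lower controls. The change was -1.23 ± 0.50 (95% interval -2.27 to -0.19, edgeR adjusted p = 0.635), with group levels of 12.4 ± 4.72 CPM (SD, n = 6) and 5.71 ± 2.08 CPM (SD, n = 6). No receptor and no other gene was called for starvation in Pachón fish (0% of genes tested by edgeR), although 2 of the 7 receptors and 1142 genes had an unadjusted p under 0.05. The DESeq2 test called 9 genes in that comparison, and no receptor was among them.

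The responses of lhcgr in the forms, set against each other, differed by 2.83 ± 0.88 (Pachón minus surface, 95% interval 0.97 to 4.68). The unadjusted p of 0.00487 gave an edgeR adjusted p of 0.274, so the difference did not pass the test over all genes, of which 0.0256% were called. Among starved fish alone, lhcgr was higher in Pachón than in surface ovaries by 3.26 ± 0.73 (edgeR adjusted p = 0.00203), with the lowest of the 6 Pachón libraries at 4.03 CPM and the highest of the 4 surface libraries at 1.29 CPM, a separation found for 11.5% of all genes. That call was lost under limma with sample quality weights (3.16, limma adjusted p = 0.0996). Between controls the difference was 0.44 ± 0.48 (95% interval -0.57 to 1.44, edgeR adjusted p = 0.513), and the control libraries overlapped. It was 0.0510 without new Pachón control 2 and 0.95 without old surface control 3. Ordered by mean, the levels ran from 12.9 CPM in new Pachón controls through 12.2 in old Pachón controls, 11.4 in new surface controls, 7.56 in old surface controls, 6.31 in old starved Pachón fish and 4.50 in new starved Pachón fish to 0.966 in new and 0.309 CPM in old starved surface fish. Neighbouring groups in that order overlapped in their libraries, except for the last 3, which were separate from each other.

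**Figure D1:**
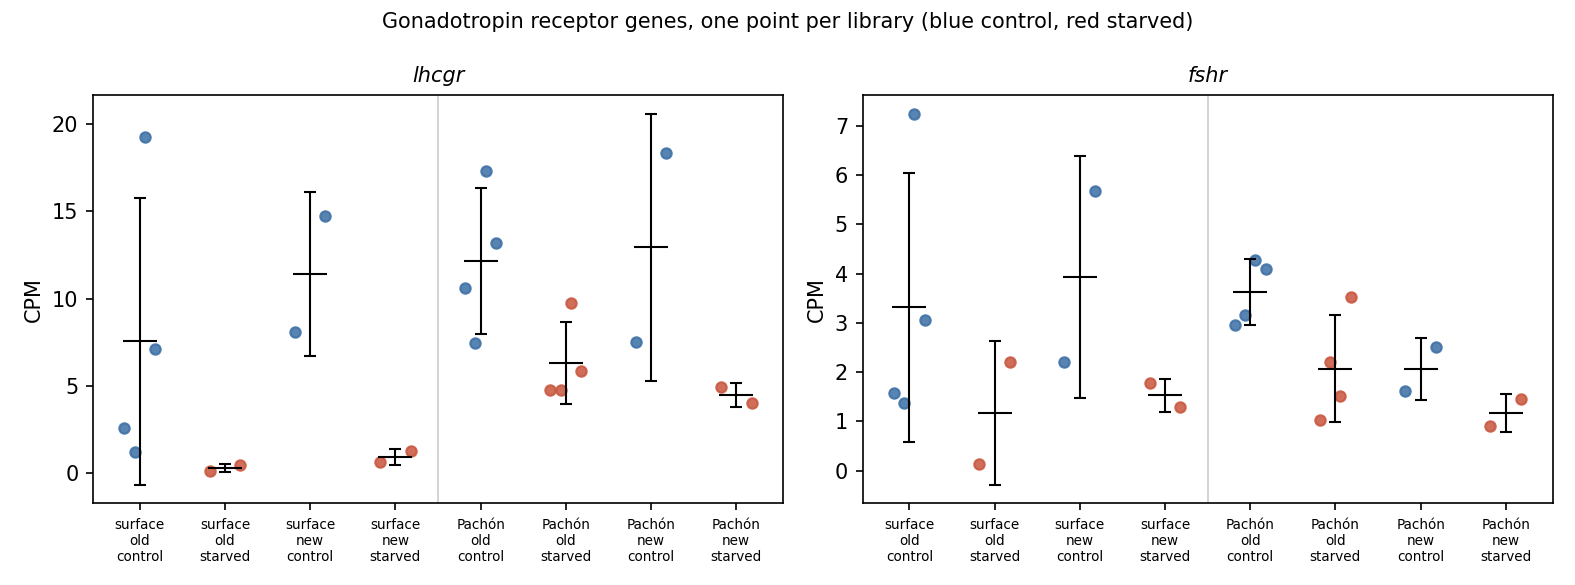
Level of lhcgr and fshr in CPM in each of the 22 libraries (points; blue control, red starved), with the group mean as the long bar and the SD as the error bar. The 4 starved surface libraries hold 0.144 to 1.29 CPM of lhcgr and the 6 starved Pachón libraries 4.03 to 9.77 CPM. For fshr, groups that are neighbours in the order of their means overlap. Within the new batch, fshr of starved fish lies below that of controls in both forms. The ranges are 1.29 to 1.77 against 2.20 to 5.67 CPM (surface) and 0.904 to 1.45 against 1.61 to 2.51 CPM (Pachón). Libraries separate in this direction for 23.3% and 23.5% of all genes.

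The FSH receptor gene fshr did not pass the test in any of these comparisons. Surface controls held 1.57, 1.37, 7.25 and 3.07 CPM in the old batch and 2.20 and 5.67 CPM in the new batch, and starved surface libraries 0.144, 2.21, 1.77 and 1.29 CPM, the first pair from the old batch. The groups overlapped, and old starved replicate 1, with a single fshr count, also had the lowest lhcgr value. The change in surface fish was -1.41 ± 0.58 (95% interval -2.63 to -0.20, edgeR adjusted p = 0.133). Without old starved replicate 2, which at 2.21 CPM was the highest starved library, the change was -2.83 and passed the test (edgeR adjusted p = 0.0407).

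In Pachón fish fshr levels were 3.10 ± 0.998 CPM in controls (SD, n = 6; 2.95, 3.16, 4.28, 4.10, 1.61 and 2.51) and 1.77 ± 0.975 CPM in starved fish (SD, n = 6; 1.03, 2.21, 1.52, 3.53, 0.904 and 1.45). The libraries overlapped, and the change was -0.79 ± 0.54 (95% interval -1.91 to 0.33, edgeR adjusted p = 0.753). The response differed between the forms by 0.62 ± 0.79 (95% interval -1.03 to 2.27, edgeR adjusted p = 0.869), an interval that spans a difference of either sign. Between Pachón and surface fish the gene differed by -0.39 ± 0.51 in controls (edgeR adjusted p = 0.581) and by 0.23 ± 0.60 in starved fish (edgeR adjusted p = 0.799). In the order of group means, from 3.93 CPM in new surface controls to 1.18 CPM in old starved surface and new starved Pachón fish, every pair of neighbours overlapped.

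Within each library the gonadotropin receptor counts can be set against each other, as a ratio that is not corrected for gene length and is compared between libraries only. The share of lhcgr among the counts of both genes had a lowest, median and highest value of 47.1%, 71.1% and 78.7% in the 6 surface controls and of 17.6%, 38.3% and 50% in the 4 starved surface libraries. In Pachón fish the corresponding shares were 70.3%, 79.2% and 88.0% in controls and 62.5%, 77.9% and 86.6% in starved fish. Starved surface libraries and surface controls overlapped slightly, and the starved Pachón libraries lay above all starved surface libraries. These shares rest on as few as 2 counts in 1 library. After centring on the group means, lhcgr and fshr deviated together over the 22 libraries (Pearson r = 0.68, Spearman rho = 0.64). In the smallest groups the deviations from the group mean mirror each other, so the 22 values are not independent. The correlation is a description of the libraries, and its cause was not tested.

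**Figure D2:**
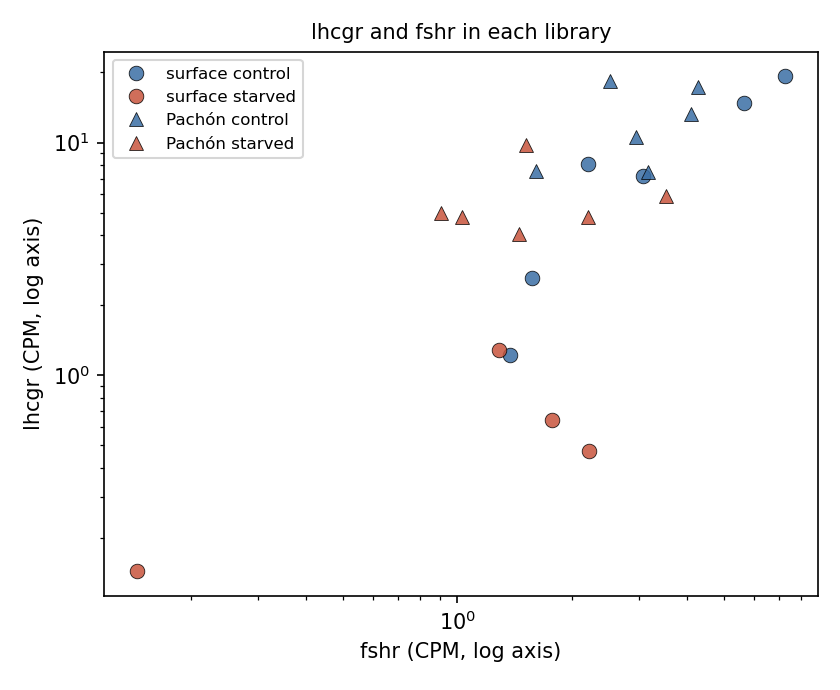
Level of lhcgr against fshr in CPM in each library, both on log axes (circles surface, triangles Pachón; blue control, red starved). Starved surface libraries lie at 0.144 to 1.29 CPM on the lhcgr axis, beside 1 surface control at 1.22 CPM, while 3 of them share the fshr range of the other groups.

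Some of the genes that mark the follicle cells carrying these receptors were also lower in starved surface ovaries. Among granulosa markers 5 of 9 tested fell and 0 rose, with a median change of -2.17 against -0.01 over all genes, and among theca and steroid-producing markers 3 of 3 tested fell, with a median of -3.78. The row cyp11a1.1, which that list missed by its symbol, changed by -1.80 and was not called (edgeR adjusted p = 0.0556). Of all genes tested, 5.37% were called lower. Every call for starvation in surface fish, here and in later paragraphs, was lost with surface libraries only and under limma with sample quality weights. The called granulosa genes included cyp19a1a, the ovarian aromatase that makes oestradiol (-3.02), foxl2b, a factor of ovarian identity (-2.61), and inhbaa, an activin and inhibin subunit (-4.20). Not all granulosa markers went that way. Mean levels in control and starved surface fish were 3.74 and 4.92 CPM for gsdf and 0.508 and 0.900 CPM for fsta. For INHBB they were 0.168 and 0.388 CPM. Summed over 16 granulosa genes, libraries spanned 23.3 to 68.5 CPM in surface controls, 16.1 to 30.7 in starved surface fish, 25.9 to 73.8 in Pachón controls and 20.2 to 36.8 CPM in starved Pachón fish. Summed over 6 theca and steroid-producing genes, they spanned 3.35 to 14.7, 0.864 to 2.37, 7.70 to 16.2 and 4.51 to 8.26 CPM in the same order. The gene star, which carries cholesterol into mitochondria, had 0 counts in all 4 starved surface libraries. It was near the limit of detection in the other groups too, with a mean of 0.325 CPM in surface controls and 46 counts over all libraries.

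Stromal markers moved with the same comparison, with 10 of 12 tested lower, beside 5.37% of all genes. Their summed level over 14 genes was 368 to 758 CPM in surface controls and 312 to 493 CPM in starved surface fish. The largest part of that sum was fn1a, with means of 403 CPM in controls and 382 CPM in starved fish, so the sum says little about the other genes. Of the smooth muscle markers 4 of 7 fell, and their summed level over 7 genes was 18.4 to 92.3 CPM against 12.7 to 22.2 CPM. Of the oocyte markers 1 of 9 rose and 0 fell, beside 2.42% of all genes called higher. Their summed level was 3113 to 3771 CPM in surface controls and 3700 to 6826 CPM in starved surface fish. The upper end came from new starved replicate 2, and the other 3 starved libraries lay between 3700 and 4059 CPM. The part of these markers in the lhcgr result was not tested, and in bulk tissue fewer cells of a type and less receptor RNA per cell cannot be told apart. In starved Pachón fish no gene of any of these lists was called, beside 0% of all genes tested. With no gene called at all, that outcome says nothing about the lists or about a difference between the forms.

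Downstream of the receptors, genes for coupling and steroid output were compared between starved and control surface fish. In that comparison 7.79% of all genes were called and 5.37% were called lower. Of 21 tested genes for G proteins, adenylyl cyclases, protein kinase A, arrestins, receptor kinases and CREB-type transcription factors, 1 rose and 0 fell, with a median change of 0.00. The 1 that rose was gnai2b, an inhibitory G protein subunit (1.57 ± 0.42, edgeR adjusted p = 0.0287). Of 14 steroid output genes 5 fell and 0 rose, with a median of -0.58. Of the 5, 3 are the theca and steroid-producing markers already counted, cyp17a1, nr5a1a and hsd3b2. Another is cyp19a1a, already counted among the called granulosa genes, so the lists are not separate observations. The called genes included nr5a1a, which switches on steroidogenic genes (-2.33 ± 0.50, edgeR adjusted p = 0.00931), and hsd3b2, an enzyme of progestin synthesis (-3.78 ± 0.97, edgeR adjusted p = 0.0256). The related glycoprotein hormone receptors and their kin gave 0 called of 4, and tshr, the thyrotropin receptor, changed by 0.41 ± 0.27 (edgeR adjusted p = 0.36).

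Of 9 tested genes for steroid receptors, nuclear ones and the membrane receptor gper1, 3 fell in starved surface ovaries and 0 rose, with a median of -0.84, beside 5.37% of all genes called lower. The nuclear progestin receptor gene pgr, which in fish is required for ovulation, had a lowest, median and highest level of 3.35, 11.4 and 37.7 CPM in 6 surface controls and of 0.864, 2.74 and 3.54 CPM in 4 starved surface libraries. The change was -2.84 ± 0.37 (edgeR adjusted p = 0.000524), beside -2.06 ± 0.48 for the oestrogen receptor esr1 (edgeR adjusted p = 0.0157) and -0.84 ± 0.22 for the glucocorticoid receptor row nr3c1 (edgeR adjusted p = 0.0255). A further row of that symbol, NR3C1, had means of 3.77 CPM in surface controls and 4.51 CPM in starved surface fish. The calls were lost with surface libraries only and under limma with sample quality weights. In Pachón fish pgr held 12.4, 17.6 and 23.2 CPM in controls and 6.28, 10.9 and 22.9 CPM in starved fish, and its change was -0.79 (edgeR adjusted p = 0.635).

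The membrane progestin receptor genes were not called for starvation in either form. The gamma receptor gene paqr5a held 29.6, 29.2, 21.8 and 20.8 CPM in old and 37.6 and 36.0 CPM in new surface controls, and 40.0 and 37.1 CPM in old and 27.7 and 42.3 CPM in new starved surface fish. Both starved libraries of the old batch lay above all 4 controls of that batch, as for 13.3% of all genes, whereas those of the new batch lay on either side of theirs. The change was 0.26 ± 0.15 over both batches (edgeR adjusted p = 0.285), 0.60 ± 0.20 in the old batch (edgeR adjusted p = 0.177) and -0.08 ± 0.23 in the new batch. Without new starved surface replicate 2, the library that stood apart, the change over both batches was 0.10.

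In Pachón fish paqr5a held 31.8, 39.5, 34.4 and 40.0 CPM in old and 44.8 and 34.6 CPM in new controls, and 37.1, 38.7, 39.4 and 52.2 CPM in old and 46.3 and 59.7 CPM in new starved fish. The starved libraries tended to the upper end of the range but overlapped the controls, and the change was 0.31 ± 0.14 (95% interval 0.02 to 0.60, edgeR adjusted p = 0.663). Between the forms paqr5a was higher in Pachón fish by 0.32 ± 0.14 in controls (edgeR adjusted p = 0.0889) and by 0.36 ± 0.15 in starved fish (edgeR adjusted p = 0.0686), neither of which passed the test. Both passed without new starved surface replicate 2 (0.33 with edgeR adjusted p = 0.0471, and 0.54 with edgeR adjusted p = 0.0124).

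The delta receptor gene PAQR6 was higher in Pachón than in surface ovaries. Surface controls held 0.698, 0, 0.191 and 0.341 CPM in the old batch and 1.02 and 0.486 CPM in the new batch, and Pachón controls 2.55, 1.17, 1.25 and 1.68 CPM in the old batch and 3.76 and 1.55 CPM in the new batch. Every Pachón control lay above every surface control, and the difference was 2.09 ± 0.61 (edgeR adjusted p = 0.012). It rests on 0 to 6 counts a library in surface controls and 7 to 21 in Pachón controls. PAQR6 would not have passed the filter on low counts from surface libraries alone. Its being tested thus depended on the form in which it was higher, though the call between controls held without the filter. Of the 7 tested receptors 3 were called between controls, 2 higher and 1 lower in Pachón fish, beside 34.6% of all genes tested, 16.6% higher and 18% lower. The libraries did not overlap for 2 of the 7, both higher in Pachón fish, as for 8.98% of all genes. Within batches the difference was 2.37 ± 0.76 in the old batch (edgeR adjusted p = 0.0247, 30.4% of genes called) and 1.80 ± 0.94 in the new (edgeR adjusted p = 0.211, 14.9% called), and its call was lost without new surface control 2 (edgeR adjusted p = 0.0645) or new Pachón control 1 (edgeR adjusted p = 0.0831).

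Among starved fish, PAQR6 held 0.144 and 0.158 CPM in old and 1.77 and 0 CPM in new surface libraries, and 1.37, 1.43, 1.52 and 1.70 CPM in old and 2.86 and 1.13 CPM in new Pachón libraries. New starved surface replicate 1 lay within the Pachón range, with 11 counts, and the other surface libraries lay below it. The difference was 2.11 ± 0.71 (edgeR adjusted p = 0.0264). It was 4.88 without that replicate and 1.68 without new starved surface replicate 2, where the call was lost (edgeR adjusted p = 0.0526). The call was also lost without either old starved surface library (edgeR adjusted p = 0.0901 and 0.0777) and without new starved Pachón replicate 1 (edgeR adjusted p = 0.124).

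The alpha receptor gene paqr7a was lower in Pachón than in surface controls. Surface controls held 1.92, 1.52, 2.29, 2.72, 1.69 and 1.78 CPM, the first 4 from the old batch, and Pachón controls 1.57, 0.666, 0.892, 0.745, 1.07 and 0.193 CPM in the same order. All but old Pachón control 1 lay below every surface control, and the difference was -1.26 ± 0.47 (edgeR adjusted p = 0.0442). It rests on 10 to 16 counts a library in surface controls and 1 to 8 in Pachón controls. For paqr7a only surface controls reached the level that the filter on low counts asks for. Its being tested thus depended on the group in which it was higher, and without the filter the call was lost (edgeR adjusted p = 0.0768). The call was close to the threshold: it held in 9 of the 22 fits that left out 1 library, and the edgeR adjusted p reached 0.203 without new Pachón control 2, where the difference was -0.90, while it was -2.08 without new Pachón control 1. Within batches it was -1.12 ± 0.52 among old (edgeR adjusted p = 0.114) and -1.41 ± 0.78 among new libraries (edgeR adjusted p = 0.242).

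Starved surface libraries held 1.15, 1.26, 1.45 and 0.644 CPM of paqr7a, all below the lowest surface control of 1.52 CPM. The change was nonetheless -0.74 ± 0.48 (edgeR adjusted p = 0.349), and libraries were separate in this direction for 2.72% of all genes. In Pachón fish the starved libraries (0.856, 0.259, 0.842, 1.18, 0.452 and 1.61 CPM) covered the range of the controls, with a change of 0.18 ± 0.49 (edgeR adjusted p = 0.954). Starved Pachón and surface fish differed by -0.34 ± 0.50 (edgeR adjusted p = 0.63).

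The second copies of the alpha and gamma receptors were near the limit of detection. For paqr7b, surface fish had 3 counts, all in new control 1, Pachón controls had 12 in 6 libraries and starved Pachón fish 3 in 6 libraries. Relative to library size, Pachón fish held 4.10 times the surface level (95% interval 1.16 to 22.1), and starved Pachón fish 0.205 times the level of their controls (95% interval 0.0372 to 0.761). For paqr5b, surface fish had 8 counts and starved Pachón fish 4, with 0 in the 6 Pachón controls, and its ratio in all Pachón against all surface fish had an interval of 0.0903 to 1.53. Between controls, 0 counts in Pachón stood against 6 in surface fish, an interval of 0 to 0.918. These intervals cover counting error only. Surface libraries alone would not have met the count rule for paqr7b, nor Pachón libraries alone for paqr5b. The inclusion of each gene thus depended on the form that held more of its counts. Its ratios between the forms are therefore not independent of that rule.

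**Figure D3:**
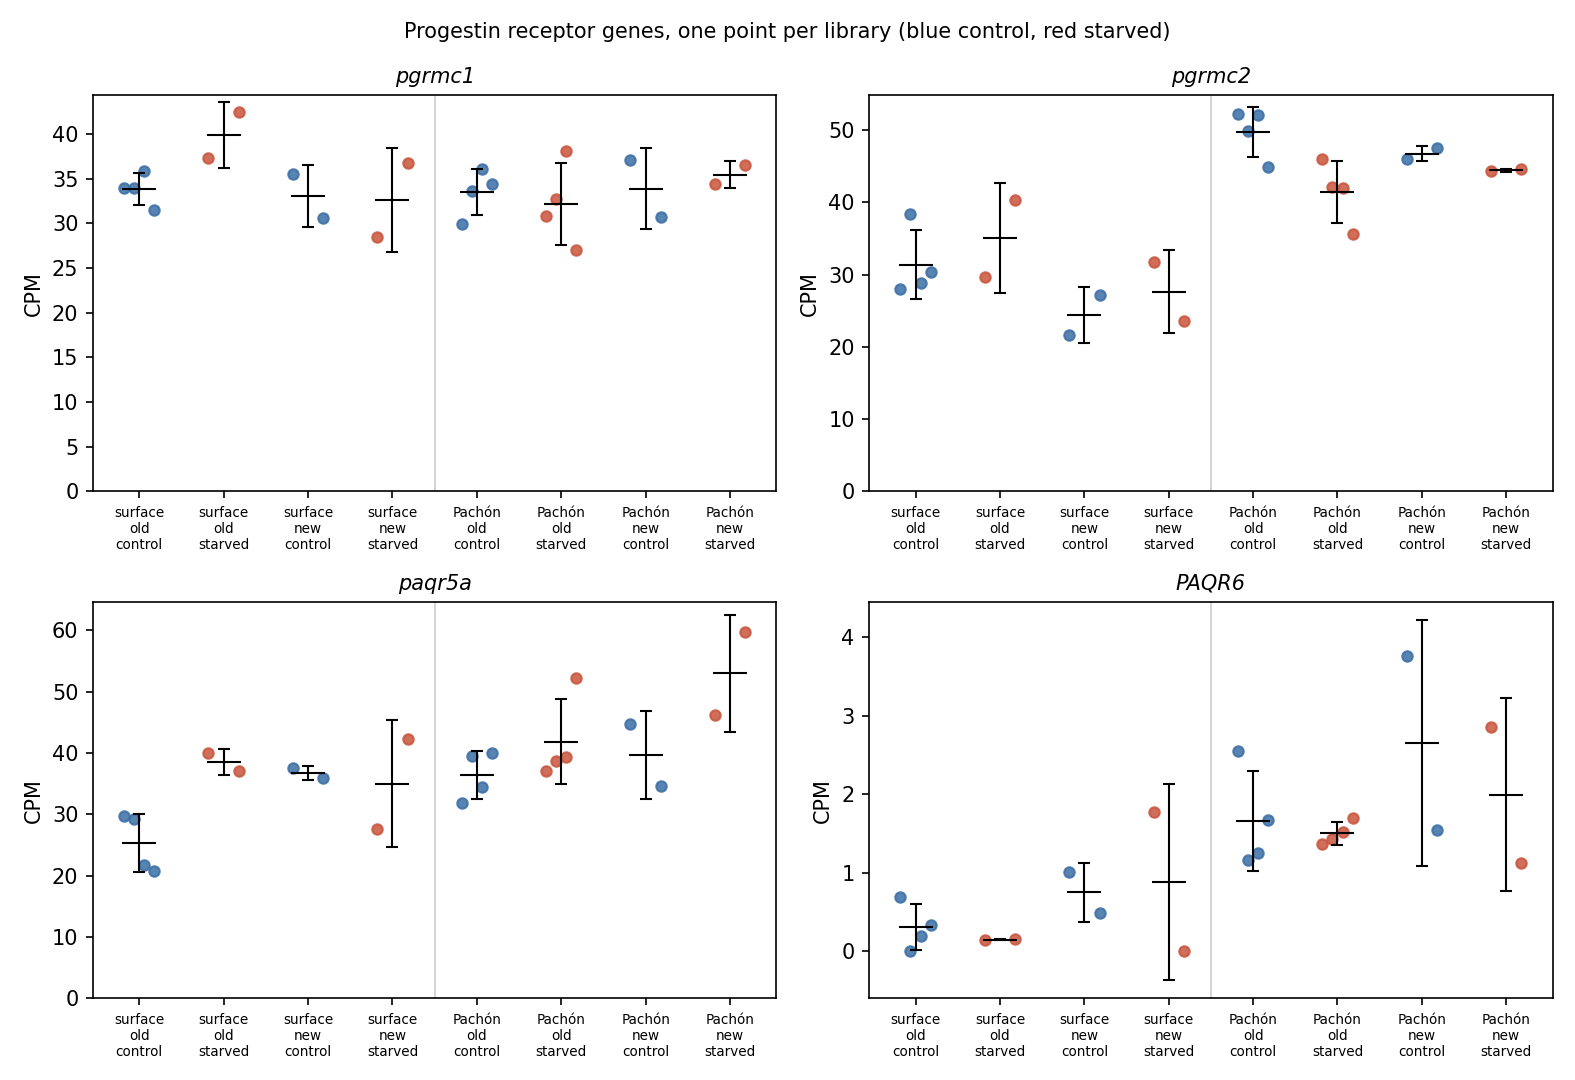
Level in CPM of pgrmc1, pgrmc2, paqr5a and PAQR6 in each library (points; blue control, red starved), with the group mean as the long bar and the SD as the error bar. Every Pachón control lies above every surface control for pgrmc2 (44.9 to 52.3 against 21.7 to 38.4 CPM) and for PAQR6 (1.17 to 3.76 against 0 to 1.02 CPM), and pgrmc1 lies between 27.1 and 42.5 CPM throughout.

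The haem-binding protein gene pgrmc2 was higher in Pachón ovaries. Surface controls held 28.1, 38.4, 28.8 and 30.3 CPM (old) and 21.7 and 27.2 CPM (new), and Pachón controls 52.3, 49.9, 52.1 and 44.9 CPM (old) and 46.0 and 47.5 CPM (new). The controls of the forms did not overlap, and the difference was 0.80 ± 0.12 (edgeR adjusted p = 3.75e-05). It was 0.66 ± 0.13 in old (edgeR adjusted p = 0.00103) and 0.94 ± 0.19 in new fish (edgeR adjusted p = 0.00283), and it was called in all 22 fits that left out 1 library.

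Starved surface libraries held 29.7, 40.4, 31.7 and 23.6 CPM of pgrmc2 and starved Pachón libraries 46.0, 42.2, 42.0, 35.7, 44.3 and 44.6 CPM, and 1 surface library, old starved 2, reached into the Pachón range. The difference was 0.46 ± 0.13 (edgeR adjusted p = 0.00797), and it lost its call in 1 fit, without old starved surface replicate 1 (edgeR adjusted p = 0.061). Of the 7 receptors 3 were called among starved fish, all higher in Pachón, beside 36% of all genes tested in either direction and 18.3% higher. Starvation itself gave 0.17 ± 0.13 in surface fish (edgeR adjusted p = 0.423; 0.27 without new starved replicate 2) and -0.17 ± 0.11 in Pachón fish (edgeR adjusted p = 0.753), and the difference between these responses was -0.34 ± 0.17 (edgeR adjusted p = 0.567).

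Its paralogue pgrmc1 was not called in any comparison. All 22 libraries lay between 27.1 and 42.5 CPM. Starvation gave 0.11 ± 0.11 in surface fish (edgeR adjusted p = 0.588; 0.0183 without new starved replicate 2), and the forms differed by 0.01 ± 0.11 in controls (95% interval -0.21 to 0.23, edgeR adjusted p = 0.946) and by -0.09 ± 0.11 in starved fish (edgeR adjusted p = 0.554). The interval in controls leaves room for differences of up to about 0.2 on the log2 scale in either direction.

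**Figure D4:**
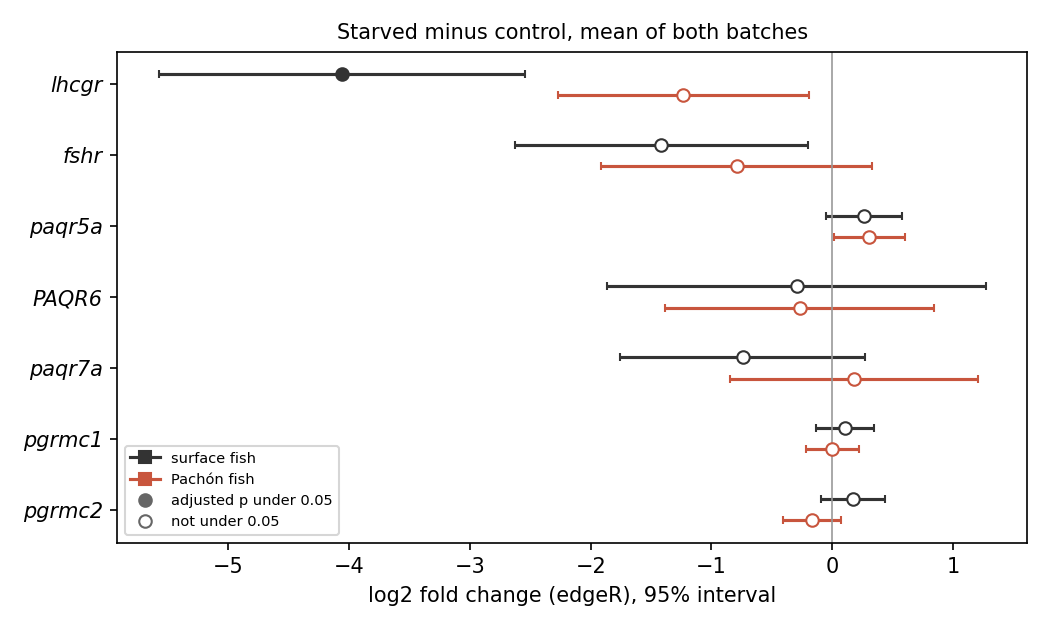
Fitted log2 change from control to starved fish for the 7 tested receptors, with 95% intervals, in surface (black) and Pachón (red) fish; filled points passed the adjusted threshold. The single filled point is lhcgr in surface fish, at -4.06.

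**Figure D5:**
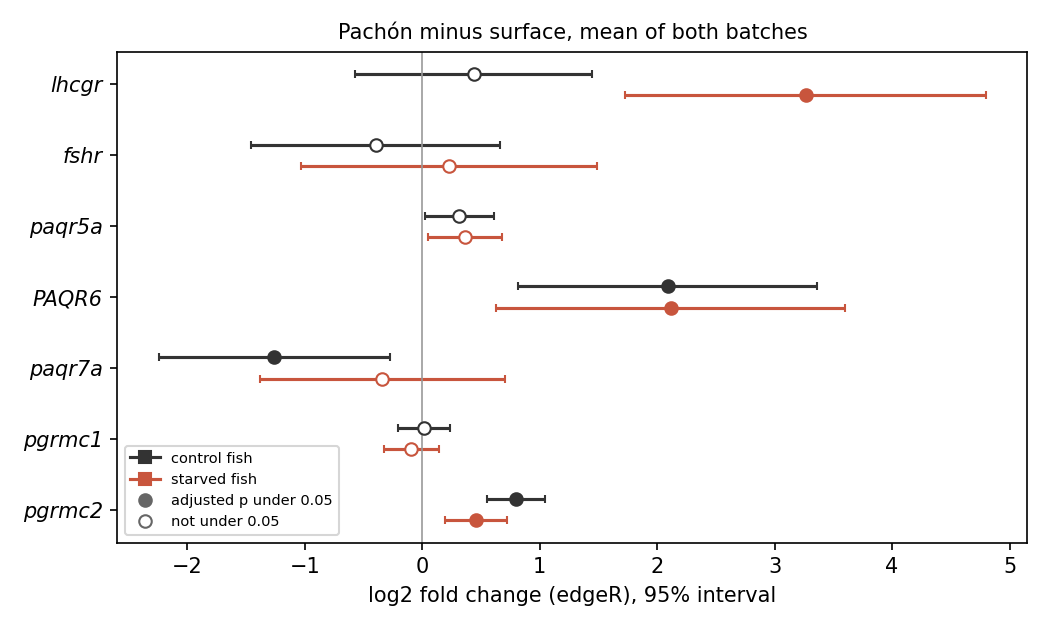
Fitted log2 difference from surface to Pachón fish for the same receptors, with 95% intervals, in control (black) and starved (red) fish; filled points passed the adjusted threshold. Filled points are PAQR6 and pgrmc2 in both states, paqr7a in controls (-1.26) and lhcgr in starved fish (3.26).

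Among the coupling genes, 5 of 21 were higher and 2 lower in Pachón than in surface controls, a share close to the 34.6% of all genes called. Of these, arrb1, which encodes a beta-arrestin that uncouples and internalises receptors, was higher by 4.07 ± 0.60 (edgeR adjusted p = 4.03e-05). The thyrotropin receptor gene tshr was lower in Pachón fish, by -1.58 ± 0.27 in controls (edgeR adjusted p = 0.000184) and by -1.74 ± 0.28 in starved fish (edgeR adjusted p = 0.000101). Its control libraries did not overlap, with 13.2 to 27.9 CPM in surface and 6.07 to 7.49 CPM in Pachón fish. Controls were separate in this direction for 9.62% of all genes. Of 7 tested genes of the neighbouring PAQR, adiponectin receptor and cytochrome b5 families, 2 were lower and 0 higher in Pachón controls, against 18% of all genes lower, and both were adiponectin receptor genes (adipor1b, -0.91, edgeR adjusted p = 0.00146, and adipor1a, -0.52, edgeR adjusted p = 0.0323).

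Of 25 tested genes of oocyte maturation, 1 rose and 2 fell in starved surface fish, beside 7.79% of all genes called in either direction. The epidermal growth factor receptor gene egfra, whose ligands relay LH signals within the follicle in mammals, fell by 2.78 on the log2 scale (SE 0.36, edgeR adjusted p = 0.000488), and the cyclin gene ccnb2, a part of maturation promoting factor, rose by 0.66 ± 0.19 (edgeR adjusted p = 0.042). These starvation calls were lost with surface libraries only and under limma with sample quality weights. Between Pachón and surface controls 4 of these genes were higher and 1 lower, and between starved fish 7 were higher and 0 lower, egfra among them at 1.76. In either direction both shares lie below those of all genes, 34.6% and 36%. For the higher direction alone, 18.3% of all genes were called among starved fish, beside the 7 of 25 here. Of 9 steroid receptor rows 1 was higher and 1 lower in Pachón controls (34.6% of all genes called), and among starved fish 6 were higher and 1 lower (18.3% of all genes higher, 36% in either direction), with pgr at 2.13 ± 0.37 (edgeR adjusted p = 0.000243).

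No receptor was called between the batches. Of the 7 receptors 0 were called between old and new surface controls, beside 7.36% of all genes, and 0 between old and new Pachón controls, beside 0.032%. In surface controls paqr5a was lower in the old batch in every library (-0.53 ± 0.20, edgeR adjusted p = 0.108), a separation seen for 17% of all genes, and pgrmc2 was higher in every old library (0.36 ± 0.17, edgeR adjusted p = 0.213), as were 16.6% of all genes. For lhcgr the old batch differed by -0.61 ± 0.67 (edgeR adjusted p = 0.654). The edgeR test left 2 of the 7 receptors at an unadjusted p under 0.05 in surface and 0 in Pachón controls. Of all 15607 genes tested, 3453 in surface and 560 in Pachón controls had such a p.

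Over the 22 libraries, the genes whose log2 CPM correlated most with lhcgr were FAM135B (Pearson r = 0.917), ak4 (0.914), mibp2 (0.911), slc6a8 (0.910) and rbm47 (0.907). After centring on the 8 group means, they included MYO10 (0.884), aqp9b (0.864), cyp11a1.1 (0.863) and mibp2 (0.849). For fshr they were atp1b1a (0.765), SERINC3 (0.761), kcnk5b (0.756), cebpd (0.741) and CHST15 (0.740), and after centring igf3 (0.818), tnfaip2a (0.818), KCNT1 (0.805), SERINC3 (0.803) and pax7b (0.799). The gene mibp2 stood in both lists of lhcgr, and SERINC3 in both lists of fshr. The centred values are not independent, because in the smallest groups they mirror each other.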

How the data were processed

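Right-side ovaries of control and starved surface and Pachón fish were sequenced after Trizol extraction, ribosomal RNA depletion and directional library preparation, per the labels' protocols. STAR 2.7.10b and RSEM are named in the submitters' processing notes without their roles; genome build, annotation and strand setting were not given in the sources used here. Coordinates are therefore left out, and a gene cannot be separated from an overlapping or antisense partner. The authors deposited whole-number counts per gene and scaled CPM of 14814 genes, treated as a signal because its columns sum to 937145 to 1202370; the latter served 1 alternative. Rows that name no gene (multimapping reads 7.91% to 17.6% of all reads) were left out.

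Tests on the counts used edgeR 4.0.16 in R 4.3.3: filterByExpr (minimum count 10, minimum total 15; 15607 genes), TMM factors, and a robust quasi-likelihood fit of 8 group means to all 22 libraries. There were 7 comparisons, with 2-sided tests and Benjamini-Hochberg adjustment over all genes tested. The SE is the change over the square root of F. Intervals on count ratios are exact binomial intervals at 95%. Alternatives within edgeR were relative log expression (RLE) factors in place of TMM, no filter, a replicate block, the compared groups only, and leaving out each library. The others were DESeq2 1.42.0 and limma 3.58.1, the latter with quality weights or on the deposited signal (log2 of value plus 1). The pipeline was checked on simulated counts.

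All 9 receptors are named; for each fixed list, at most 4 called genes with the smallest p, and for lhcgr and fshr the 5 most correlated genes, of which 1 is not reported here. The genes star, cyp11a1.1, NR3C1 and tshr in starvation and pgr in Pachón fish fall outside the rule and were chosen after their values were seen. The receptors and lists were chosen with earlier results of these data known.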

Additional observations from a re-analysis of the deposited data

Results flagged for a closer look

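Of 25 groups of 4 libraries examined for a library far from the rest, 1 stood out: paqr5a in old starved Pachón fish, where 1 library held 52.2 CPM and the nearest 39.4 CPM, a gap of 0.848 of the group's whole range. Chance gives about 1 such group in 20.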

How the results depend on the processing

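Of 331 values of single receptors under alternatives other than leaving out a library, 319 kept their direction and side of the threshold. Genes called for starvation in surface fish numbered 1216, but 672 with a replicate block, 0 with the compared groups only (2818 at an unadjusted p under 0.05) and 0 with limma quality weights (2178); both of the latter left 0 receptors called. The lhcgr change was then -4.06 and -3.55, against -3.52 with the block, still called (edgeR adjusted p = 0.0052). For starvation in Pachón fish, 0 genes became 9 with DESeq2 and 1 with limma on the deposited signal. For the difference of the responses, 4 became 107 with DESeq2 and 0 with quality weights (824 unadjusted); the compared groups alone cannot give it. For starved fish of the forms, quality weights gave 3489 genes in place of 5617 and 1 receptor in place of 3, with lhcgr at 3.16 (limma adjusted p = 0.0996). Between batches of surface controls, 1148 became 572 with the compared groups only and 1807 with quality weights; between those of Pachón controls, 5 became 8 with no filter, 3 with the block, 20 with the compared groups only, 19 with DESeq2 and 8 with the deposited signal. Without a filter and with the block, paqr7a lost its call between controls (edgeR adjusted p = 0.0768 and 0.0517). With the compared groups only and with quality weights, PAQR6 lost its call between starved fish (adjusted p = 0.0549 and 0.0776 by edgeR and limma). DESeq2 called paqr5a there (DESeq2 adjusted p = 0.0482). Changes that turned sign were all near 0 and uncalled: pgrmc1 in Pachón starvation (-0.00254 with the block, -0.00272 with quality weights), fshr between starved fish (-0.00688 with the block) and PAQR6 in the difference (-0.0627 with the deposited signal).

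Same-numbered libraries did not deviate together (correlations -0.195 to 0.136, over 0.1 in 3 of 62 pairs), which gave no sign that replicate numbers pair the samples. Pairing is not excluded, because in the smallest groups the deviations from the group mean mirror each other, so the pairs are not independent. Beside the calls named here, the block changed no receptor's call.

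Leaving out each library in turn, genes called ranged from 420 to 4342 and receptors from 1 to 2 for starvation in surface fish, from 0 to 3 and 0 to 0 in Pachón fish, and from 1 to 798 and 0 to 0 for the difference. Surface counts were 525 and 573 without old starved replicates 1 and 2, 750 and 459 without new controls 1 and 2, and 4342 and 420 without new starved replicates 1 and 2. The ranges were 4096 to 6293 genes and 1 to 4 receptors between controls, 4349 to 6268 and 1 to 3 between starved fish, 405 to 1742 and 0 to 0 between surface batches, and 4 to 10 and 0 to 0 between Pachón batches. Uncalled values whose range crossed 0 were PAQR6 (-3.06 to 0.16) in surface starvation; pgrmc1 (-0.0623 to 0.0748), PAQR6 (-0.68 to 0.12) and paqr7a (-0.39 to 1.00) in Pachón starvation; paqr5a (-0.10 to 0.21) and PAQR6 (-0.42 to 2.79) in the difference; fshr (-0.66 to 0.0258) and pgrmc1 (-0.0575 to 0.0796) between controls; fshr (-0.23 to 1.65), pgrmc1 (-0.18 to 0.0185) and paqr7a (-0.91 to 0.0173) between starved fish; fshr (-0.97 to 0.57) and pgrmc1 (-0.0771 to 0.15) between surface batches; and lhcgr (-0.59 to 0.69), pgrmc1 (-0.15 to 0.12), paqr5a (-0.30 to 0.0755), PAQR6 (-1.18 to 0.0944) and paqr7a (-0.16 to 2.20) between Pachón batches. The cause of these changes was not tested. Depth limits paqr5b, paqr7b and, in starved surface fish, lhcgr and PAQR6, which rest on 0 to 11 counts a library. It also limits calls between controls, where PAQR6 had 0 to 6 counts in surface libraries and paqr7a 1 to 8 counts in Pachón libraries.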
